A study of Mus musculus with 47 samples.

Results

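The genes described here are 38 genes whose usual place of expression is the germline of testis or ovary, measured in medullary thymic epithelial cells (mTECs). They were chosen by name, matched through their Ensembl identifiers to symbols of mouse build GRCm38, and all 38 were found in both count tables, among 53402 genes of the adult and 55471 genes of the neonatal table. By role they fall into 12 premeiotic and piRNA-pathway genes, 11 meiotic genes, 6 spermatid genes and 9 oocyte genes. Transcripts had been measured by bulk RNA sequencing of cells sorted from C57BL/6 mouse thymus as DAPI-negative, CD45-negative, EpCAM-positive and Ly51-negative. The sort split them into a fraction with high surface MHC class II (mTEChi, which holds the more mature cells) and a fraction with low MHC class II (mTEClo). The adult table held 23 libraries from mice aged 4 to 6 weeks, namely mTEChi of wild type (WT, n = 7) and of mice deficient in Aire (AireKO, n = 4), and mTEClo of WT (n = 8) and AireKO (n = 4). In both fractions WT mice were aged 4 or 5 weeks and AireKO mice 5 or 6 weeks. Age and genotype were thus partly mixed, and the adult fits had no term for age. The neonatal table held 24 libraries from mice aged 1 to 6 days. Among its mTEChi libraries 5 were Ctrl, 3 lacked EED in thymic epithelium (EEDcKO), 3 were AireKO and 3 lacked both (AireEEDdKO). Among its mTEClo libraries 3 were Ctrl, 4 were EEDcKO and 3 were AireEEDdKO. EEDcKO mice carried a floxed Eed allele and Foxn1-Cre, which acts in all thymic epithelium and not only in mTECs, and AireEEDdKO mice lacked Aire as well. The alleles that the Ctrl mice carried are not given in the labels, some neonatal libraries pooled male and female pups, and all adult AireKO libraries came from males. Not all adult WT libraries came from males alone. Sex and genotype were thus partly mixed in the adult, and the main adult fit had no term for sex.

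Germ cells use these genes in a fixed order. Premeiotic cells protect their genome with PIWI proteins, which bind small piRNAs and silence transposons together with Tudor-domain (Tdrd) proteins. Cells that enter meiosis then build the synaptonemal complex and cut and repair their own DNA, spermatids exchange histones for transition proteins and protamines, and oocytes surround themselves with the zona pellucida. Most other cells keep these genes silent, in part through DNA methylation and Polycomb complexes. mTECs are an exception, because they transcribe genes of many tissues so that developing T cells that recognise such self-antigens can be removed. Aire is a transcriptional regulator of this process, and EED belongs to the core of the second Polycomb repressive complex, PRC2, which methylates histone H3 at silenced genes.

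Library totals ran from 1602125 to 3938588 counts in the adult table and from 1578579 to 4817418 in the neonatal table. Expression is given as CPM, each gene's counts relative to the library total, on library sizes scaled by trimmed mean of M values. Aire lay at 746 to 914 CPM in adult mTEChi WT and at 16.6 to 38.1 CPM in AireKO. Eed lay at 20.2 to 38.5 CPM in neonatal mTEChi Ctrl and at 10.6 to 19.7 CPM in EEDcKO. In mTEClo, Eed lay at 23.1 to 25.7 CPM in Ctrl and 14 to 16.3 CPM in EEDcKO, without overlap but under the 2-fold limit (-0.67 ± 0.22, adjusted p = 0.023). All 7 mTEC markers examined (Epcam, Krt5, Krt8, H2-Aa, Cd80, Aire and Fezf2) had counts in every group. The 4 adult mTEChi AireKO libraries and 2 of the 4 adult mTEClo AireKO libraries held 0 mitochondrial counts, while the other 17 adult libraries all held some, so in adult mTEChi genotype and this library property cannot be told apart. Summed thymocyte markers lay at 85.6 to 121 CPM in adult mTEChi WT and at 43.6 to 56.8 CPM in AireKO, summed ciliated mimetic cell markers at 479 to 618 and 306 to 401 CPM, and summed myeloid markers at 239.8 to 303 and 344 to 396 CPM. Their part in the results on Aire was not tested.

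The germline genes were low in most libraries, and 1 gene stood far above the rest. The map of all 38 genes shows Zp2, a glycoprotein of the zona pellucida, as the brightest row in adult mTEChi. Per kilobase of exon, mean levels in adult mTEChi WT were 34.8 CPM for Zp2, 11.4 for Zp3, 8.50 for Tnp2, 7.42 for Oosp1, 7.26 for Stra8 and 5.88 for Spo11. In each adult mTEChi WT library 33 to 38 of the 38 genes had at least 1 count, against 15 to 26 in adult mTEClo WT. Bulk libraries do not say how many cells carried each transcript, and fewer expressing cells cannot be told apart from less RNA per cell.

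**Figure D1:**
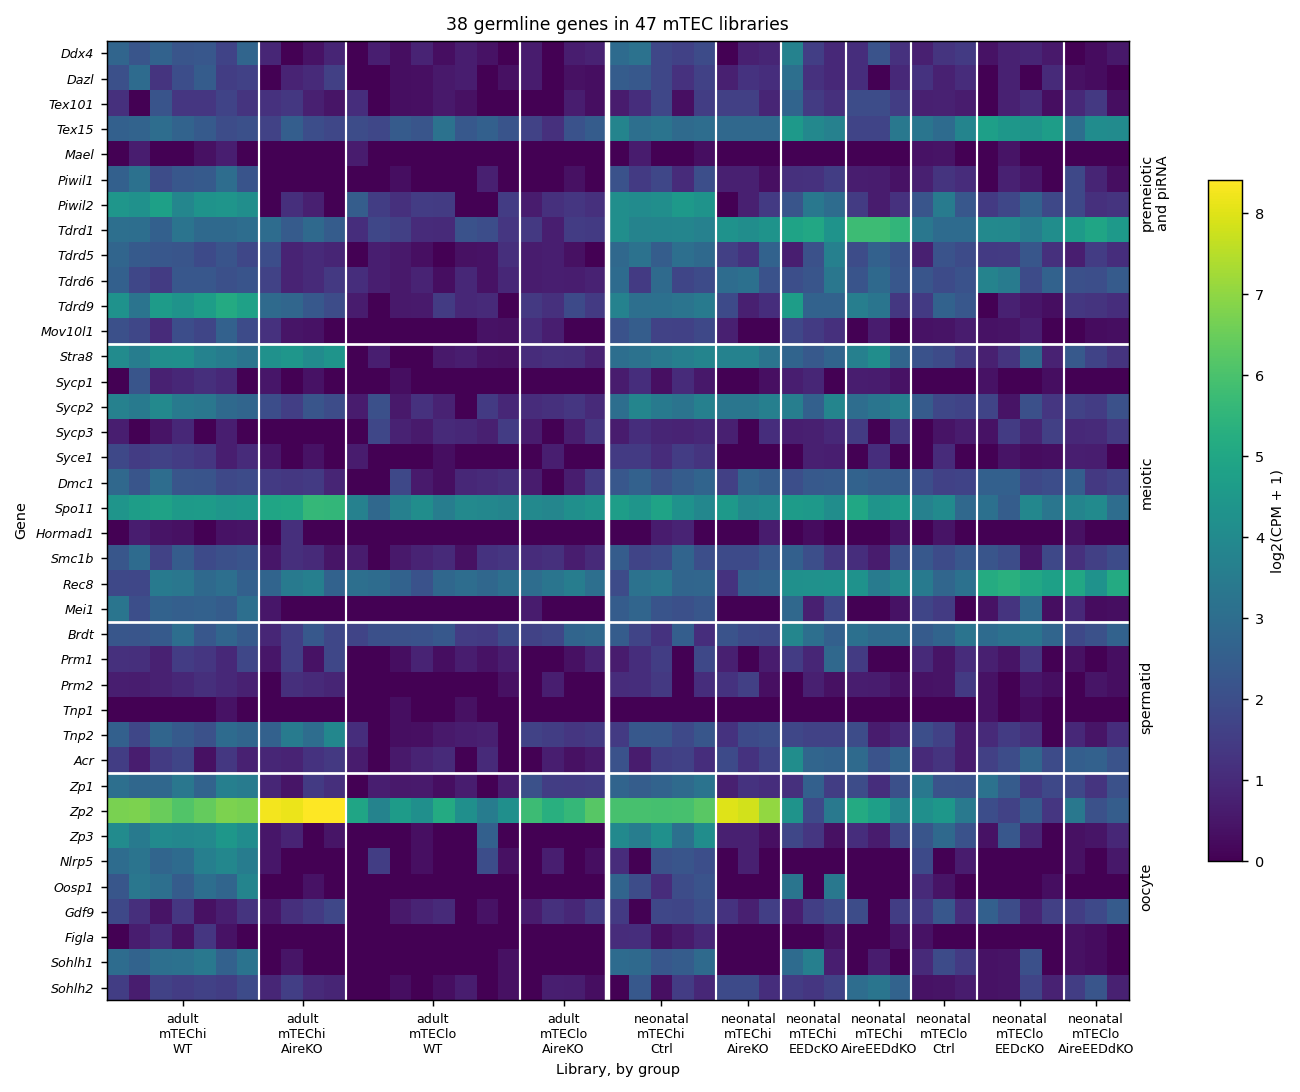
Levels of the 38 germline genes (rows, in 4 classes) in the 47 libraries (columns, by group), as log2(CPM + 1) on a colour scale from dark blue (0) to yellow. Zp2 is the brightest row, and most rows are lighter in mTEChi WT or Ctrl than in mTEClo.

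Sums over a class describe how the classes moved between groups. The 12 premeiotic and piRNA genes summed to a lowest, median and highest value of 67.4, 77.2 and 88.9 CPM in adult mTEChi WT and 15.4, 19.4 and 24 CPM in AireKO, with no overlap. The 11 meiotic genes summed to 55.5, 67.4 and 87.2 CPM and 60.0, 71.7 and 81.2 CPM in the same groups, and these ranges overlapped. Most of the AireKO sum came from Spo11, at 30.0 to 47.3 CPM, and Stra8, at 15.6 to 20.5 CPM, neither of them lower than in WT. Of the 7 meiotic genes tested below, 4 were called lower in AireKO, so the sum does not describe each gene. Oocyte genes went the other way in sum, with 115, 148 and 167 CPM in WT against 292, 325 and 344 CPM in AireKO. That direction came from Zp2, since all 38 genes without Zp2 lay between 185 and 227 CPM in WT and between 94.2 and 118 CPM in AireKO when summed. In neonatal mTEChi, oocyte genes summed to 90.5 to 117 CPM in Ctrl and 134 to 258 CPM in AireKO. In EEDcKO they summed to 23.9 to 40.5 CPM, so that the sums of AireKO and EEDcKO lay on opposite sides of Ctrl. The higher sum in AireKO again came from Zp2, which alone lay at 130 to 253 CPM there. Without Zp2, the oocyte genes summed to less than in Ctrl in both AireKO and EEDcKO. Spermatid genes summed to 9.17 to 11.2 CPM in neonatal mTEChi Ctrl and to 16.7 to 34.4 CPM in EEDcKO. The plot of summed classes shows each library.

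**Figure D2:**
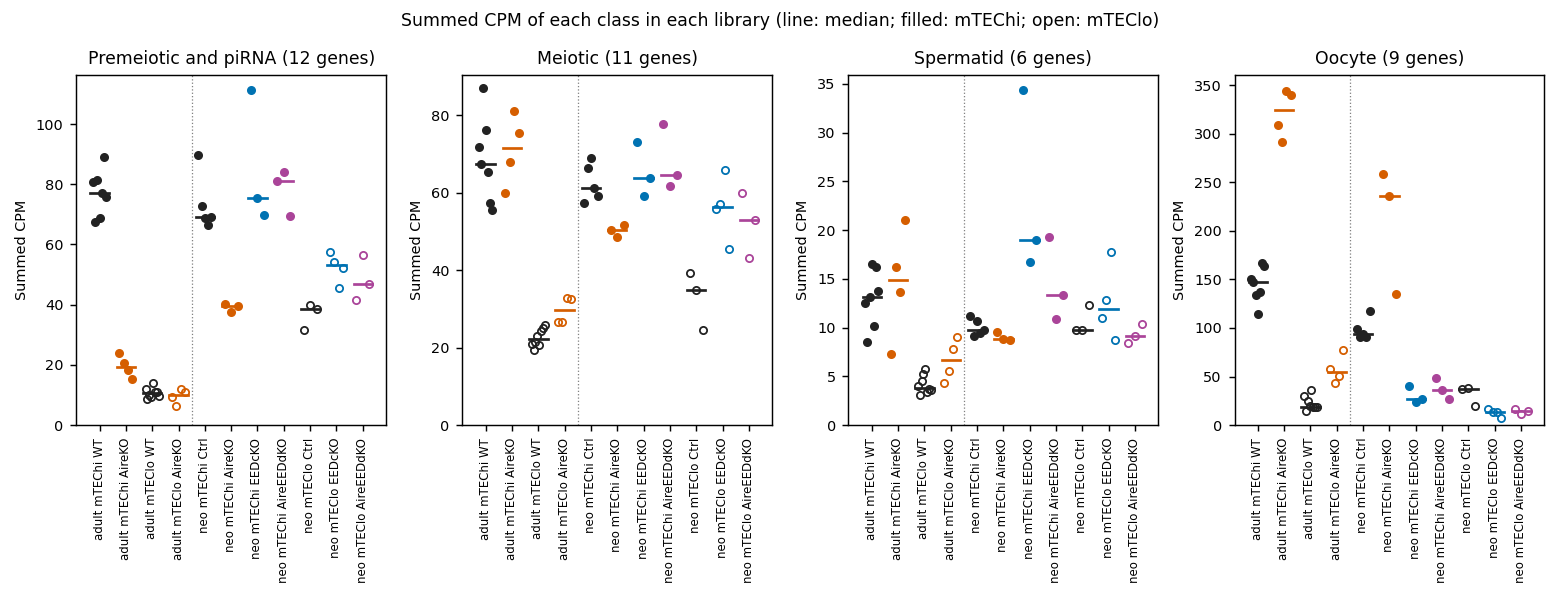
Summed CPM of the 4 classes in each library of the 11 groups, with a line at the group median, filled points for mTEChi and open points for mTEClo. Premeiotic and piRNA genes are lower in mTEChi AireKO than in WT or Ctrl at both ages, while the oocyte sum is higher there, carried by Zp2.

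A test across all genes was possible for 23 of the 38 genes in the adult table and 25 in the neonatal table, because the others were too low for edgeR's expression filter. Most members passed through the group in which they were high, so the counts of changed members below describe these genes and say nothing about germline genes as a class. A gene was called changed at an edgeR adjusted p under 0.05 and at least a 2-fold difference. How many of all called genes had libraries without overlap, or were called at both ages, was not counted. Such counts below therefore do not set the members apart from other called genes. All fold changes are log2 values with their SE. Where values of a group with more than 5 libraries are given, they are the lowest, the median and the highest.

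The first comparison asked how the germline genes differ between the fractions of the adult wild-type medulla. In adult WT, 19 of the 23 tested members were higher in mTEChi than in mTEClo and 0 were lower in edgeR, where 23.8% of all tested genes were higher and 12.3% lower (36.0% in all). DESeq2 also called 0 lower, and 21 members had an unadjusted edgeR p under 0.05 in either direction. The median log2 fold change was 3.39 over the tested members and 0.01 over all tested genes. In these 19 genes the libraries of the fractions did not overlap. By class, 7 of 8 tested premeiotic and piRNA genes, 5 of 7 meiotic genes, 1 of 2 spermatid genes and 6 of 6 oocyte genes were called. Marker sums of other cell types moved with the fraction as well. From mTEClo to mTEChi, myeloid markers lay at 37.7 to 66.8 and 239.8 to 303 CPM, mesenchyme markers at 54.3 to 88.0 and 192 to 353 CPM and thymocyte markers at 34.7 to 51.6 and 85.6 to 121 CPM, none of them overlapping. Their part in this contrast was not tested.

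Premeiotic and piRNA genes were 7 of the 19. Piwil2, a PIWI protein that loads piRNAs in early germ cells, stood at 0, 1.77 and 4.55 CPM in mTEClo and 13.5, 18.9 and 26.2 CPM in mTEChi (3.66 ± 0.32, adjusted p = 3.6e-11). Tdrd9, a Tudor-domain helicase that works with the PIWI proteins, rose from 0, 0.545 and 1.75 CPM to 8.50, 23.4 and 34.1 CPM (4.89 ± 0.33, adjusted p = 1.1e-13). Piwil1, the PIWI protein of later spermatogenesis, had 3 counts over the 8 mTEClo libraries and 88 over the 7 mTEChi libraries, a ratio of 38.9-fold, 95% counting interval 12.9 to 192 (adjusted p = 2.6e-09). Ddx4, the helicase known as the mouse Vasa homologue and a classical germ-cell marker, also rose, as did Tdrd1, Tdrd5 and Tdrd6 (3.39, 1.81, 3.02 and 2.30). Tex15, which is needed for transposon silencing and meiotic repair in males, was the tested piRNA gene that was not called (0.08 ± 0.26, adjusted p = 0.79), with 2.50, 3.81 and 7.98 CPM in mTEClo and 2.87, 5.00 and 7.09 CPM in mTEChi.

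Meiotic genes split into genes that were near 0 or low in mTEClo and genes present in both fractions. Stra8, which germ cells switch on when they commit to meiosis, stood at 0, 0.316 and 0.624 CPM in mTEClo and at 8.49, 12.3 and 17.2 CPM in mTEChi (5.33 ± 0.31, adjusted p = 7.3e-15). Mei1, needed for meiotic DNA breaks, had 0 counts in all 8 mTEClo libraries and 102 counts in mTEChi, which was at least 45.1-fold higher against a floor of 3 counts over the group (adjusted p = 6.0e-10). Sycp2 of the synaptonemal complex, the recombinase Dmc1 and the meiotic cohesin subunit Smc1b rose as well (3.21, 2.12 and 2.12). Spo11, the enzyme that cuts DNA in meiosis, was present in both fractions, at 6.24, 12.4 and 16.4 CPM in mTEClo and 20, 23.2 and 28.0 CPM in mTEChi. Its libraries did not overlap either, but the difference was under 2-fold (0.87 ± 0.15, adjusted p = 6.3e-06). Rec8, the meiotic kleisin subunit of cohesin, stood at 3.39, 6.43 and 7.46 CPM in mTEClo and 2.43, 6.29 and 9.92 CPM in mTEChi, and the fractions overlapped (0.09 ± 0.25, adjusted p = 0.76).

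Oocyte genes were nearly absent from adult mTEClo, with Zp2 as the exception. Oosp1, an oocyte-secreted protein, had 0 counts in the 8 mTEClo libraries and 3.75, 7.18 and 12.7 CPM in mTEChi, at least 59.7-fold higher (adjusted p = 2.2e-09). Sohlh1, a transcription factor of early germ cells in both sexes, had 1 count in mTEClo and 137 in mTEChi, a ratio of 182-fold, 95% counting interval 32.1 to 7228 (adjusted p = 1.0e-12). Zp3, the zona protein known as a sperm receptor, had counts in 2 of 8 mTEClo libraries, with 5.00 CPM in replicate 7, and 9.72, 15.2 and 20.7 CPM in mTEChi (4.46 ± 0.50, adjusted p = 1.5e-08). The same mTEClo library held the highest mTEClo value of Nlrp5, a maternal-effect gene of the egg, at 3.00 CPM. Nlrp5 stood at 5.67, 8.50 and 13.7 CPM in mTEChi (3.90 ± 0.47, adjusted p = 2.1e-08). Zp2 had counts in every library of both fractions, at 10.7, 17.4 and 34.4 CPM in mTEClo and 69.2, 102 and 107 CPM in mTEChi (2.20 ± 0.17, adjusted p = 2.6e-12). Among spermatid genes, Tnp2, a transition protein that replaces histones, rose from 0, 0.380 and 1.14 CPM to 2.43, 5.00 and 6.69 CPM (3.43 ± 0.38, adjusted p = 4.9e-09), and Brdt, the testis bromodomain protein, stayed under the 2-fold limit (0.75 ± 0.27, adjusted p = 0.014).

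In adult mTEChi, most of the tested germline genes were lower in AireKO than in WT, and Zp2 was higher. Of the 23 tested members, 15 were lower in AireKO than in WT, where 18.3% of all tested genes were lower, and 1 was higher, where 5.09% were. The median log2 fold change was -1.70 over the members and -0.05 over all tested genes. Libraries of the genotypes did not overlap for 14 of these 16 genes, the exceptions being Tdrd5 and Tdrd6.

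Several genes fell to a few counts or none. Sohlh1 stood at 5.10, 7.44 and 9.28 CPM in WT and at 0, 0.395, 0 and 0 CPM in the 4 AireKO libraries, a ratio of 75.7-fold, 95% counting interval 13.4 to 3013 (adjusted p = 5.5e-09). Oosp1 had 135 counts over the WT libraries and 1 over the AireKO libraries (74.6-fold, 95% counting interval 13.2 to 2970, adjusted p = 1.5e-06). Nlrp5 had 174 and 1 (96.2-fold, 95% counting interval 17.0 to 3821, adjusted p = 1.0e-06). These 3 genes had at most 1 count over the 4 AireKO libraries. Zp3 fell from 9.72, 15.2 and 20.7 CPM to 0.428, 0.790, 0 and 0.406 CPM (-5.14 ± 0.75, adjusted p = 3.1e-06). Zp1, which links the filaments of the zona, fell from 5.39, 7.50 and 11.5 CPM to 0.857, 0.395, 1.66 and 1.22 CPM (-2.88 ± 0.37, adjusted p = 2.4e-07).

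Genes of the PIWI proteins were also lower. Piwil1 had 88 counts in WT and 0 in AireKO, at least 16.2-fold lower (adjusted p = 4.8e-07). Piwil2 stood at 0, 1.19, 0.666 and 0 CPM in AireKO, far below its lowest WT library at 13.5 CPM (-5.18 ± 0.53, adjusted p = 4.7e-09). Tdrd9 kept some expression, with 6.42, 5.93, 3.99 and 2.84 CPM in AireKO, and its highest AireKO library lay below the lowest WT library (-2.24 ± 0.32, adjusted p = 1.1e-06). Ddx4 stood at 0.857, 0, 0.333 and 0.811 CPM in AireKO, against 2.23 CPM in its lowest WT library (-3.01 ± 0.50, adjusted p = 1.2e-05). Tdrd1, a Tudor protein that binds PIWI proteins, lay at 4.96, 7.07 and 8.43 CPM in WT and 6.85, 4.35, 6.32 and 4.46 CPM in AireKO and was not called (-0.30 ± 0.26, adjusted p = 0.33). The Tudor genes thus did not share a fold change in this contrast, with Tdrd5 and Tdrd6 lower in AireKO but overlapping with WT. Tdrd5 stood at 2.48, 3.61 and 5.62 CPM in WT and 3.00, 0.790, 0.998 and 0.811 CPM in AireKO (-1.37 ± 0.44, adjusted p = 0.0094), and Tdrd6 at 1.77, 3.54 and 5.00 and 2.14, 0.790, 0.998 and 1.62 CPM (-1.28 ± 0.35, adjusted p = 0.0029).

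Meiotic genes did not all fall. Mei1 had 102 counts in WT and 1 in AireKO, a ratio of 56.4-fold, 95% counting interval 9.90 to 2249 (adjusted p = 9.7e-07). Sycp2 fell from 5.66, 9.72 and 14.5 CPM to 3.00, 1.98, 3.66 and 2.84 CPM (-1.70 ± 0.34, adjusted p = 0.00015). Smc1b fell from 2.13, 3.54 and 6.68 to 0.428, 1.19, 0.998 and 0.406 CPM (-2.17 ± 0.45, adjusted p = 0.00017) and Dmc1 from 2.55, 3.61 and 7.09 to 1.71, 1.58, 1.66 and 0.811 CPM (-1.48 ± 0.49, adjusted p = 0.012). Stra8, by contrast, stood at 18.0, 20.5, 15.6 and 19.5 CPM in AireKO, overlapping WT (0.49 ± 0.21, adjusted p = 0.046). Spo11 lay at 30.0, 31.6, 47.3 and 46.6 CPM in AireKO, above all WT libraries but by less than 2-fold (0.76 ± 0.16, adjusted p = 0.00023). The genes for making and repairing meiotic breaks therefore included Mei1, with 1 count left, and Spo11, which was not lower.

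Zp2 rose while its partner genes of the zona fell. It stood at 69.2, 102 and 107 CPM in adult mTEChi WT and at 306, 287, 339 and 335 CPM in AireKO, and the groups were far apart (1.75 ± 0.17, adjusted p = 2.2e-09). All AireKO libraries of this contrast lacked mitochondrial counts. In a fit with a term for such libraries, which rests on the mTEClo AireKO libraries of both kinds, 7 members were called, and 6 of them were among these 16, namely Zp2, Zp1, Piwil1, Piwil2, Tdrd9 and Ddx4. The mTEClo AireKO libraries without mitochondrial counts also came from older mice and had larger totals. The term can therefore not be told apart from age or depth. Tdrd5 changed its sign in that fit, to 0.43. There, Zp3, Oosp1, Nlrp5, Sohlh1 and Mei1 kept a negative estimate with adjusted p between 0.26 and 1.00.

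In adult mTEClo, where Aire was at 19.2 to 128 CPM in WT, 4 of the 23 tested members were higher in AireKO and 0 were lower in edgeR. DESeq2 called 3 higher and 0 lower, and 7 members had an unadjusted edgeR p under 0.05 in either direction. Across all tested genes 4.61% were higher and 3.70% lower in AireKO, 8.31% in all. Summed myeloid markers ranged over 37.7 to 66.8 CPM for WT libraries and 106 to 143 CPM for AireKO libraries, and ciliated mimetic markers at 324 to 459 and 151 to 228 CPM. Their part here was not tested. Zp2 stood at 10.7, 17.4 and 34.4 CPM in WT and 54.0, 38.6, 47.4 and 73.1 CPM in AireKO (1.41 ± 0.20, adjusted p = 7.6e-06). Zp1, which fell in mTEChi, rose here from 0, 0.513 and 0.624 CPM to 3.27, 1.87, 1.80 and 1.96 CPM (2.29 ± 0.47, adjusted p = 0.00068). Tnp2 lay at 2.18, 1.87, 1.50 and 1.72 CPM in AireKO against at most 1.14 CPM in WT (2.01 ± 0.53, adjusted p = 0.0061). The groups did not overlap for these genes, nor for Stra8, which reached 1.09, 1.24, 1.2 and 0.736 CPM in AireKO (1.70 ± 0.59, adjusted p = 0.034) and lost its call in 11 of 20 alternative fits.

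A test of the difference between the fractions compared the AireKO effect in mTEChi with that in mTEClo. It called 8 of 23 members as more negative in mTEChi, where 11.6% of all tested genes were, and 0 as more positive, where 2.23% were. DESeq2 called 13 and 0, and 9 members had an unadjusted edgeR p under 0.05. Zp1 had the smallest adjusted p, with a difference in log2 fold change of -5.17 ± 0.61, adjusted p = 4.4e-07. Tdrd9 (-3.60 ± 0.67, adjusted p = 0.00021), Piwil2 (-4.89 ± 0.98, adjusted p = 0.00044) and Ddx4 (-3.55 ± 0.96, adjusted p = 0.0071) followed. Mei1, Smc1b, Sycp2 and Brdt were the other calls. For Zp2 no difference between the fractions was called (0.34 ± 0.27, adjusted p = 0.39). In AireKO mice, 8 of 23 members were still higher in mTEChi than in mTEClo, where 17.8% of all tested genes were (35.3% in either direction), and 0 were lower in edgeR, where 17.5% were. DESeq2 called 8 higher and 1 lower, and 9 members had an unadjusted edgeR p under 0.05. Stra8 (4.11 ± 0.35, adjusted p = 4.0e-11), Zp2 (2.54 ± 0.21, adjusted p = 2.5e-11) and Spo11 (1.22 ± 0.19, adjusted p = 2.8e-06) had the lowest adjusted p, followed by Tnp2 (2.33 ± 0.38, adjusted p = 6.5e-06) and Tdrd1 (1.80 ± 0.37, adjusted p = 0.00012). The calls of Tdrd5, Tdrd9 and Sycp2 in this contrast were each lost without mTEChi AireKO replicate 1 and without mTEClo AireKO replicate 4, and the call of Sycp2 also with a replicate block. Over all alternative fits, the call was lost in 2 of 15 for Tdrd5, 5 of 16 for Tdrd9 and 11 of 15 for Sycp2. The count was 5 without mTEChi AireKO replicate 1 or mTEClo AireKO replicate 4.

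**Figure D3:**
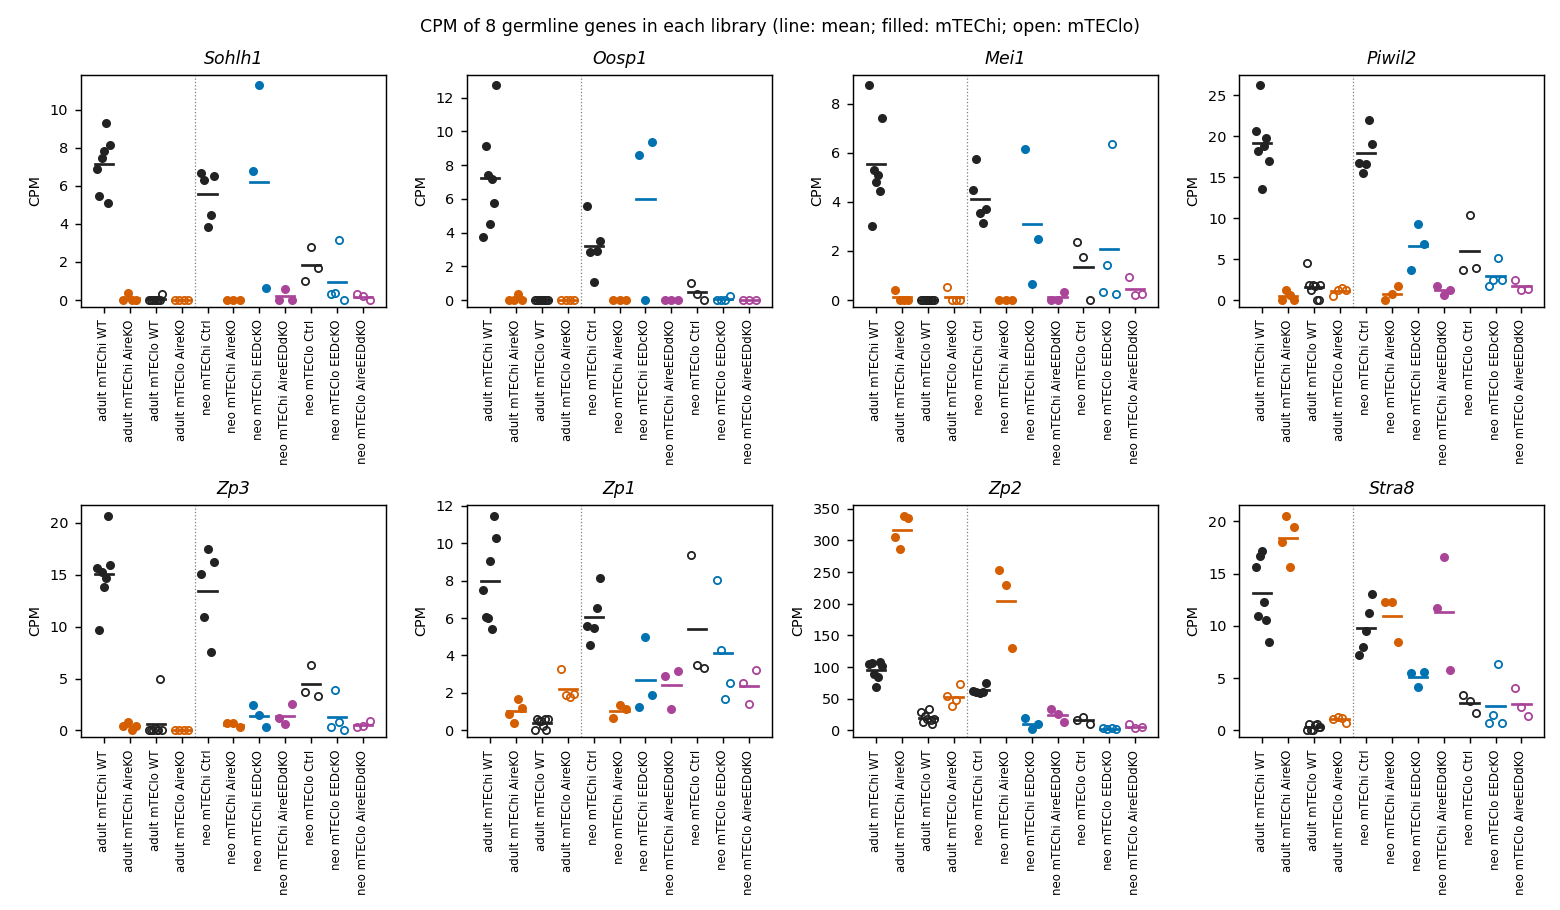
CPM of 8 germline genes in each library of the 11 groups, each panel with its own axis from 0, a line at the group mean, filled points for mTEChi and open points for mTEClo. Sohlh1, Oosp1, Mei1, Piwil2, Zp3 and Zp1 lie near 0 in mTEChi AireKO, Zp2 lies above WT and Ctrl there, and Stra8 lies near WT and Ctrl.

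Neonatal mTECs were measured in a table of their own, so their levels are not tested against the adult ones. In neonatal Ctrl, 5 of the 25 tested members were higher in mTEChi than in mTEClo, where 13.8% of all tested genes were, and 1 was lower, where 6.92% were. Ctrl pups were aged 1 to 6 days for mTEChi and 1 to 3 days for mTEClo, so age and fraction were partly mixed. The 3 mTEClo Ctrl libraries had counts for 30 to 34 of the 38 genes. Aire stood at 322 to 329.8 CPM in these mTEClo libraries. Summed thymocyte markers lay at 26.8 to 40.0 CPM in mTEClo and 97.1 to 119 CPM in mTEChi, mesenchyme markers at 120.4 to 128 and 239.9 to 314 CPM and cTEC markers at 2081 to 3138 and 239 to 895 CPM. What they contribute was not tested. Piwil2 lay at 3.69, 10.4 and 3.91 CPM in mTEClo and 16.7, 15.5, 16.6, 22.0 and 19.0 CPM in mTEChi (1.55 ± 0.39, adjusted p = 0.0037). Sycp2 (1.69 ± 0.41), Stra8 (1.88 ± 0.53), Zp2 (1.97 ± 0.39) and Zp3 (1.57 ± 0.53) were the other rises. Brdt was lower in mTEChi, with overlapping libraries and a call that was lost in 9 of 15 alternative fits (-1.13 ± 0.42, adjusted p = 0.037).

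In neonatal mTEChi, 8 of the 25 tested members were lower in neonatal AireKO than in Ctrl, where 12.8% of all tested genes were, and 1 was higher, where 3.56% were. For all 9 the libraries of the genotypes did not overlap, and all 9 were also called, in the same direction, in adult mTEChi. Summed ciliated mimetic markers lay at 344 to 443 CPM in Ctrl and 159 to 253 CPM in AireKO, with 8 of 12 called lower, and their part here was not tested. Sohlh1 stood at 6.69, 6.30, 3.82, 4.45 and 6.5 CPM in Ctrl and had 0 counts in the 3 AireKO libraries, at least 11.6-fold lower (adjusted p = 0.0039). Mei1 and Oosp1 also had 0 counts in AireKO, at least 8.35-fold and 6.37-fold lower (adjusted p = 0.0088 and 0.027). These 3 genes were thus not detected in the 3 neonatal mTEChi AireKO libraries at this depth. In mTEChi AireEEDdKO, which also lacked Aire, Mei1 had 1 count in replicate 3 and Sohlh1 had 1 count in replicate 2.

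Zona and piRNA genes made up the other calls. Zp3 stood at 15.1, 10.9, 17.5, 7.59 and 16.3 CPM in Ctrl and 0.679, 0.683 and 0.280 CPM in AireKO, a ratio of 29.6-fold, 95% counting interval 9.98 to 145 (adjusted p = 0.00021). Piwil2 fell from 16.7, 15.5, 16.6, 22.0 and 19.0 CPM to 0, 0.683 and 1.68 CPM (-4.09 ± 0.54, adjusted p = 1.5e-05). Zp1, Tdrd9 and Ddx4 fell with them (-2.48 ± 0.64, -2.64 ± 0.69 and -2.67 ± 0.90), Ddx4 losing its call without any 1 of the 3 AireKO libraries. Zp2 rose from 61.9, 60.7, 59.5, 61.3 and 75 CPM to 253, 229 and 130 CPM (1.67 ± 0.32, adjusted p = 0.00062). Sycp2, Smc1b and Dmc1, which fell in the adult, stood at -0.02 ± 0.36, -0.15 ± 0.52 and -0.14 ± 0.37 and were not called. Whether these effects differ between the ages was not tested, since the tables were fitted apart. AireKO pups were aged 4 or 6 days and Ctrl pups 1 to 6 days, and the count of called members was also 9 with age as a term.

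**Figure D4:**
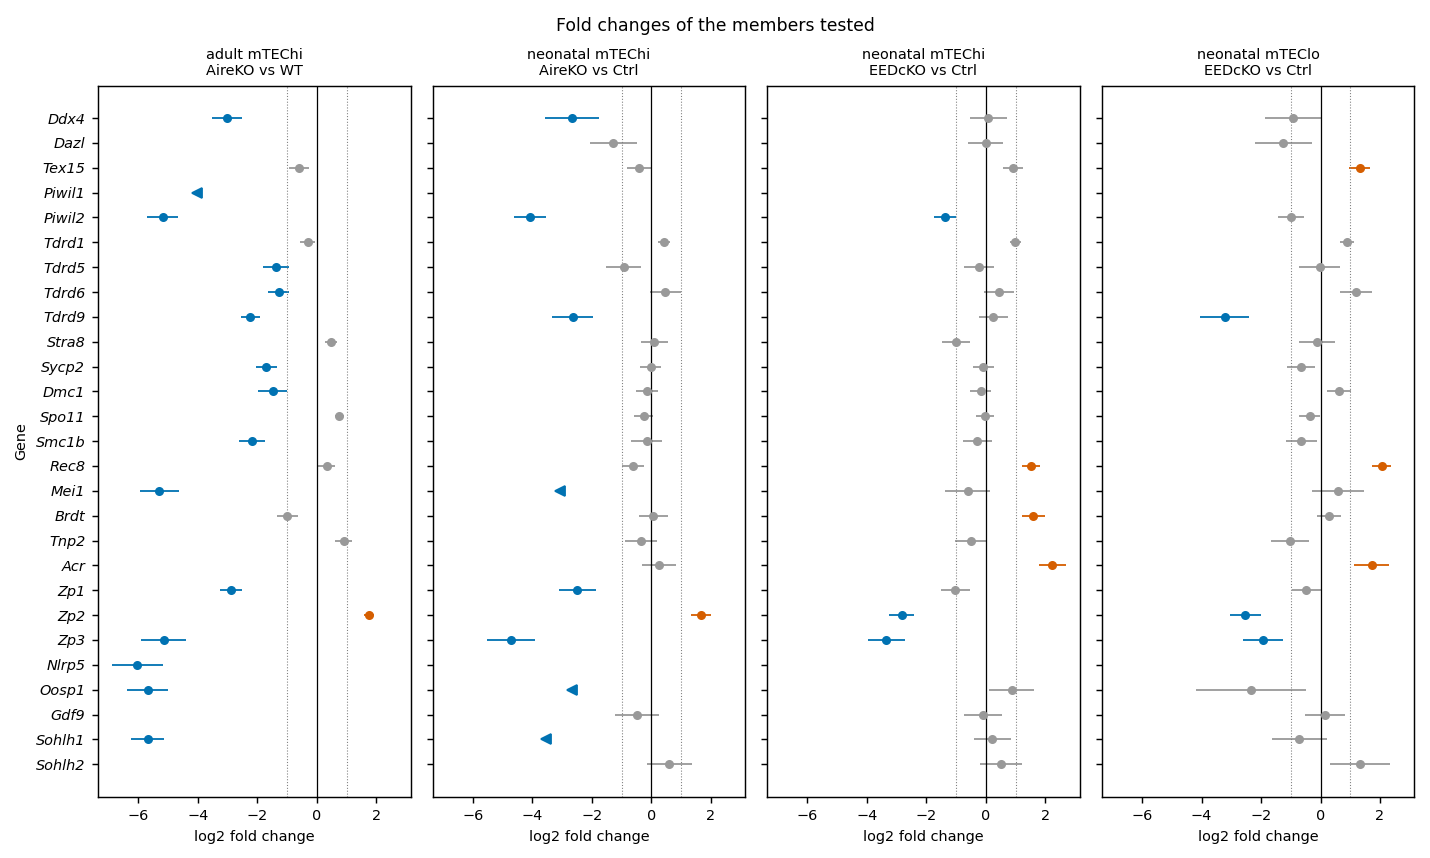
log2 fold changes with SE of the members tested in 4 contrasts, in orange where called higher, blue where called lower and grey where not called, with dotted lines at 2-fold. Triangles mark the bound of a member with 0 counts in the lower group. Zp2 lies to the right without Aire and to the left without EED, and Rec8 and Acr lie to the right without EED in both fractions.

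Loss of EED was compared in both neonatal fractions. In neonatal mTEChi, 3 of the 25 tested members were higher in EEDcKO than in Ctrl, where 8.48% of all tested genes were, and 3 were lower, where 5.40% were. In neonatal mTEClo, 3 members were higher, against 9.51% of all tested genes, and 3 were lower, against 6.22%. The median log2 fold change of the tested members was -0.03 in mTEChi and -0.36 in mTEClo. Over all tested genes it was -0.00 and -0.01. Pups of the mTEClo Ctrl libraries were aged 1 to 3 days and those of EEDcKO 1 to 6 days, and with age as a term the mTEClo counts were 2 higher and 3 lower, Acr losing its call. Summed mesenchyme markers moved with the genotype, lying at 239.9 to 314 CPM in mTEChi Ctrl and 488 to 772 CPM in EEDcKO, and at 120.4 to 128 and 492 to 677 CPM in mTEClo. Summed cTEC markers, of the thymic cortex, lay at 2081 to 3138 CPM in mTEClo Ctrl and 402 to 974 CPM in mTEClo EEDcKO, and the part of either list in these results was not tested.

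The upstream sequences of the 4 members that were called in the most contrasts varying EED and that had a promoter window in the RefSeq table are shown, ties being broken by the size of the change, because each of them was called in EEDcKO in at least 1 fraction. They end before the earliest annotated start, and run 5′ to 3′ on the coding strand in build GRCm38. Capitals mark CACGTG, an E-box bound by the germline repressor complex that contains MGA and MAX. The motif GCGGGA, an E2F-type site read on both strands (its reverse is TCCCGC), was searched as well.
Rec8 chr14:55617916-55618036 (+ strand): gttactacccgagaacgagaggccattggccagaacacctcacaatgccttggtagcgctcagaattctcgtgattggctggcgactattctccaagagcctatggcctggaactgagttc
Zp3 chr5:135979855-135980098 (+ strand): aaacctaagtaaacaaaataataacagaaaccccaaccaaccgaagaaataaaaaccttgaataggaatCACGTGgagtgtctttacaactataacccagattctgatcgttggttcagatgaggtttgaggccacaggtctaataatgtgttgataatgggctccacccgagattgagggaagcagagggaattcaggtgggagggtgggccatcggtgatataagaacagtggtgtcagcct
Tdrd9 chr12:111971309-111971558 (+ strand): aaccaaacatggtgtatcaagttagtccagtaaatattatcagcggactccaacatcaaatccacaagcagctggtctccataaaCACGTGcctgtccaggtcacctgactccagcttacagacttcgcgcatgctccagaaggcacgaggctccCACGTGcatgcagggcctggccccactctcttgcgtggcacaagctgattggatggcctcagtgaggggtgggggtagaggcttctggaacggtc
Brdt chr5:107330944-107331158 (+ strand): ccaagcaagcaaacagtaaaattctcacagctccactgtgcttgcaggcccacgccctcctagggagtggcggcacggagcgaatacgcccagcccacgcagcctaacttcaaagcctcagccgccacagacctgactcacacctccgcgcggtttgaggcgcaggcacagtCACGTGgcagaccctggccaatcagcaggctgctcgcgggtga
Within the 250 bases before the RefSeq start, CACGTG was found 2 times for Tdrd9, 165 and 95 bases upstream, and 1 time each for Zp3, at 181 bases, and Brdt, at 78 bases. Rec8 had no CACGTG and 1 GCGGGA match, 38 bases before the RefSeq start and so in the stretch not printed. Windows were found for 30 of the 38 genes and not for Spo11, Acr, Tex15, Gdf9, Tdrd6, Zp1, Zp2 and Piwil2. CACGTG occurred in 14 of the 34 member windows (41.2%) and in 6.02% of all 32851 RefSeq windows of that length, and GCGGGA in 10 (29.4%) and 16.9%. The median number of CpG dinucleotides was 12 in member windows and 6 in all windows. Rec8 had 10, Zp3 5, Tdrd9 8 and Brdt 16.

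Rec8 was called in both fractions. It stood at 2.79, 8.02, 9.0, 5.76 and 5.81 CPM in neonatal mTEChi Ctrl and 17.8, 18.2 and 18.7 CPM in EEDcKO (1.51 ± 0.29, adjusted p = 0.00045). In mTEClo it went from 10.1, 5.91 and 7.81 CPM to 35.4, 39.2, 32.1 and 26.3 CPM (2.05 ± 0.31, adjusted p = 4.0e-05), and neither fraction showed an overlap. Rec8 was not called in the contrasts of AireKO with WT or Ctrl. Acr, the protease of the sperm acrosome, rose from 3.35, 0.573, 1.91, 2.09 and 1.16 to 16.6, 5.64 and 5.30 CPM in mTEChi (2.24 ± 0.44, adjusted p = 0.00058) and from 1.00, 1.39 and 0.558 to 2.00, 2.85, 5.92 and 2.75 CPM in mTEClo (1.72 ± 0.58, adjusted p = 0.028). The call of Acr in mTEClo was lost in 7 of 13 alternative fits. In mTEChi, EEDcKO replicate 1, from pups aged 6 days, held the highest value of Acr, Brdt, Ddx4, Tdrd9 and Tex15 in its group. The mTEChi calls of Acr and Brdt stayed without this library.

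Brdt and Tex15 were each called in 1 fraction. Brdt stood at 4.46, 2.29, 1.36, 4.71 and 1.16 CPM in mTEChi Ctrl and 13.5, 7.38 and 4.99 CPM in EEDcKO (1.6 ± 0.40, adjusted p = 0.0039), and in mTEClo it was not called (0.28 ± 0.40). Tex15 rose in mTEClo from 8.71, 6.61 and 12.8 to 26.0, 21, 19.7 and 24.8 CPM (1.32 ± 0.35, adjusted p = 0.0066), a call lost without mTEClo Ctrl replicate 2. In mTEChi its difference was under 2-fold (0.92 ± 0.33, adjusted p = 0.038). Tdrd1 stayed just under 2-fold in both fractions (0.99 ± 0.18, adjusted p = 0.00032 in mTEChi and 0.89 ± 0.22, adjusted p = 0.0039 in mTEClo), with 16.7, 12.6, 12.8, 13.1 and 11.8 CPM in mTEChi Ctrl and 28.3, 31.9 and 19.0 CPM in EEDcKO. A test of the EED effect between the fractions called 0 of 25 members in edgeR, where 1.58% of all tested genes were called, with 2 members at an unadjusted p under 0.05 and 1 call in DESeq2.

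**Figure D5:**
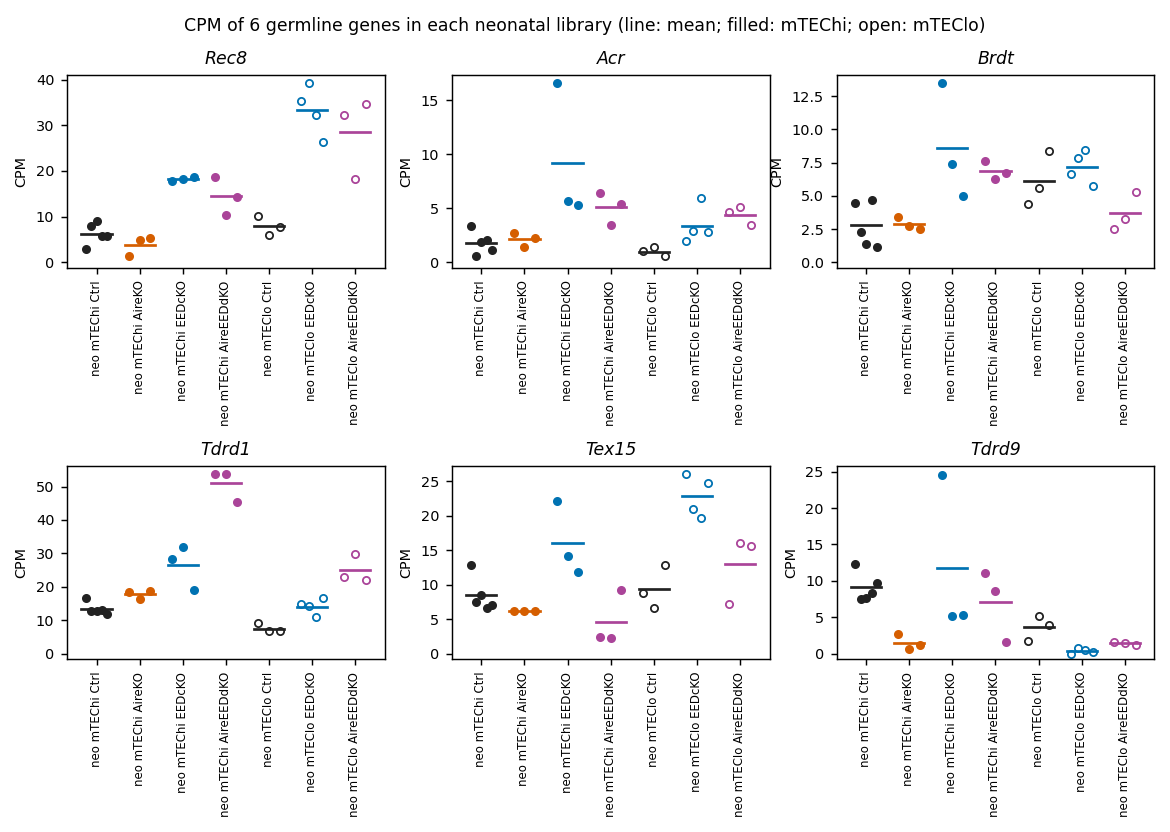
CPM of 6 germline genes in each neonatal library of 7 groups, each panel with its own axis from 0, a line at the group mean, filled points for mTEChi and open points for mTEClo. Rec8 and Acr lie above Ctrl in EEDcKO and AireEEDdKO of both fractions, and Tdrd1 is highest in mTEChi AireEEDdKO.

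Zp2 and Zp3 fell without EED, while Zp1 was not called in mTEChi (-1.03 ± 0.49, adjusted p = 0.11) or mTEClo (-0.49 ± 0.49, adjusted p = 0.48). Zp2 went from 61.9, 60.7, 59.5, 61.3 and 75 to 19.0, 2.60 and 9.67 CPM in mTEChi (-2.83 ± 0.43, adjusted p = 4.1e-05) and from 17.1, 20.9 and 9.49 to 3.01, 2.14, 4.23 and 1.50 CPM in mTEClo (-2.52 ± 0.51, adjusted p = 0.00066). Zp3 went from 15.1, 10.9, 17.5, 7.59 and 16.3 to 2.46, 1.52 and 0.312 CPM in mTEChi (-3.34 ± 0.63, adjusted p = 0.00038), with a smaller fall in mTEClo whose libraries overlapped (-1.93 ± 0.66, adjusted p = 0.029). That mTEClo call of Zp3 was lost in 6 of 14 alternative fits. Zp2 therefore lay below Ctrl without EED and above Ctrl without Aire, while Zp3 lay below Ctrl in both. Piwil2 fell in mTEChi from 16.7, 15.5, 16.6, 22.0 and 19.0 to 3.69, 9.33 and 6.86 CPM (-1.37 ± 0.37, adjusted p = 0.0073). Tdrd9 fell in mTEClo to 0, 0.713, 0.423 and 0.250 CPM from 1.68, 5.22 and 3.91 CPM (-3.22 ± 0.83, adjusted p = 0.0052). In mTEChi Tdrd9 was not called (0.24 ± 0.49), and the difference between the fractions was 3.47 ± 0.97, adjusted p = 0.066. Aire itself lay at 599 to 1063 CPM in mTEChi EEDcKO and 460.1 to 801 CPM in Ctrl, and Sohlh1 at 6.76, 11.3 and 0.624 and 6.69, 6.30, 3.82, 4.45 and 6.5 CPM.

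Loss of EED was also compared on the AireKO background. AireEEDdKO mTEChi differed from AireKO in 2 members that were higher, where 6.69% of all tested genes were, and 1 that was lower, where 2.78% were (9.47% in all). Rec8 rose from 1.36, 4.78 and 5.32 to 18.7, 10.3 and 14.3 CPM (1.79 ± 0.39, adjusted p = 0.0028). Tdrd1 rose from 18.3, 16.4 and 18.8 to 53.7, 53.9 and 45.5 CPM (1.50 ± 0.21, adjusted p = 3.1e-05), and its AireEEDdKO libraries were the highest of all neonatal libraries for this gene. Zp2 fell from 253, 229 and 130 to 34.4, 25.8 and 13.0 CPM (-3.10 ± 0.42, adjusted p = 2.0e-05). Same-numbered libraries of these groups had correlated deviations and shared their age, and a replicate block left all 3 of these calls in place. Aire itself was lower in AireEEDdKO than in AireKO (-1.76 ± 0.55, adjusted p = 0.028), without overlap, at 9.86 to 32.1 and 44.4 to 114 CPM. Summed mesenchyme markers lay at 248 to 347 CPM in AireKO and 399.6 to 721 CPM in AireEEDdKO, and the part of either in these calls was not tested. The contrast shares its AireKO libraries with the comparison of AireKO and Ctrl.

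Loss of Aire was likewise compared on the EEDcKO background. Against EEDcKO, 4 of 25 members were lower in mTEChi AireEEDdKO, where 8.36% of all tested genes were, and 2 were higher, where 4.99% were. In both fractions, AireEEDdKO pups were aged 4 or 6 days and EEDcKO pups 1 to 6 days, so age and genotype were partly mixed. Oosp1 had 8.60, 0 and 9.36 CPM in EEDcKO and 0 counts in AireEEDdKO, at least 10.3-fold lower (adjusted p = 0.013), but the groups overlapped because 1 EEDcKO library also had 0. Sohlh1 had 65 counts in EEDcKO and 1 in AireEEDdKO (45.4-fold, 95% counting interval 7.87 to 1822, adjusted p = 0.0083). The 3 EEDcKO libraries held 11, 52 and 2 of these counts, so the ratio rests largely on replicate 2. EEDcKO replicate 3 lay at 0.624 CPM, close to AireEEDdKO replicate 2 at 0.573 CPM. Piwil2 (-2.49 ± 0.58, adjusted p = 0.0038) and Tex15 (-1.58 ± 0.41, adjusted p = 0.0082) were the other falls. Sohlh2, the partner of Sohlh1, stood higher at 7.01, 8.59 and 5.41 CPM against 1.84, 1.52 and 2.18 CPM (1.89 ± 0.68, adjusted p = 0.046), and Zp2 rose with overlapping libraries (1.40 ± 0.49, adjusted p = 0.041). Those 2 rises were lost in 11 and 9 of 13 alternative fits. Zp3 was the only member called in the test of an interaction between Aire and EED in mTEChi (5.02 ± 1.28, adjusted p = 0.046), where 1.25% of all tested genes were, 0.807% with a positive sign. It stood at 1.17, 0.573 and 2.55 CPM in AireEEDdKO, beside 0.312 to 2.46 CPM in EEDcKO and 0.280 to 0.683 CPM in AireKO. The call was lost in 13 of 21 alternative fits, all of which left out a single mTEChi library. In mTEClo, AireEEDdKO against EEDcKO called 0 of 25 members in edgeR and in DESeq2, with 6 at an unadjusted p under 0.05, where 5.30% of all tested genes were called, 3.45% higher and 1.85% lower.

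The remaining members gave few counts. In the adult table Dazl, Tex101, Mael, Mov10l1, Sycp1, Sycp3, Syce1, Hormad1, Prm1, Prm2, Tnp1, Acr, Gdf9, Figla and Sohlh2 were too low to be tested. Tnp1, a transition protein, had 3 counts over the 23 adult libraries, and Hormad1, a protein of the meiotic chromosome axis, had 8. Protamine genes, which pack the DNA of sperm, reached at most 2.48 CPM (Prm1) and 1.2 CPM (Prm2) in adult mTEChi WT. Dazl, an RNA-binding protein of germ cells, lay at 1.42, 3.01 and 6.68 CPM in adult mTEChi WT and at most at 0.61 CPM in mTEClo WT. Mov10l1, a helicase of the piRNA pathway, lay at 1.06, 2.83 and 5.10 and 1.28, 0.395, 0.333 and 0 CPM in adult mTEChi WT and AireKO. Among neonatal libraries 13 members were too low, among them Piwil1 and Nlrp5, and Nlrp5 had 1.12, 0, 3.27, 3.67 and 3.02 CPM in mTEChi Ctrl and 0 counts in the 3 mTEChi EEDcKO libraries. Gdf9, a growth factor of the oocyte, was tested in the neonatal table only and was called in no contrast. Exons of Sycp3 overlap those of Chpt1 over 660 bases, and since counting ignored strand, its values are uncertain. The same holds for Tdrd5 with 4930518J20Rik over 176 bases and for Tnp1 with 1700027A15Rik over 40 bases.

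A wider list held 106 further germline genes. The adult table allowed a test of 49 of them and the neonatal table of 54, and the rest did not pass the filter. Low genes can pass it through the group in which they are high. The counts for this list therefore describe the tested genes and say nothing about germline genes as a class. In adult mTEChi, 14 were lower and 0 higher in AireKO in edgeR, with 32 at an unadjusted p under 0.05 in either direction and a median log2 fold change of -0.28. Of all tested genes 18.3% were lower and 5.09% higher, with a median of -0.05. Further oocyte genes made up 7 of the falls, out of 11 tested. Dppa3, a maternal factor that protects DNA methylation in the zygote, went from 15.1 ± 4.42 to 1.31 ± 0.975 CPM (SD, log2 fold change -3.47 ± 0.39 SE, adjusted p = 3.0e-08). The meiotic mismatch protein gene Msh4 went from 8.76 ± 2.37 to 2.51 ± 0.767 CPM (SD, log2 fold change -1.77 ± 0.30 SE, adjusted p = 1.9e-05), and Oas1c from 11.4 ± 0.964 to 2.97 ± 1.77 CPM (SD, log2 fold change -1.88 ± 0.30 SE, adjusted p = 6.2e-06). In adult mTEChi WT against mTEClo, 27 of 49 were higher and 1 lower, beside 23.8% and 12.3% of all tested genes.

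The same list was compared without EED. In mTEChi EEDcKO, 2 of 54 were higher and 6 lower, beside 8.48% and 5.40% of all tested genes. In mTEClo 1 was higher and 6 lower, beside 9.51% and 6.22%. Ldhc, the lactate dehydrogenase of sperm, went in mTEChi from 5.71 ± 1.82 to 1.12 ± 0.456 CPM (SD, log2 fold change -2.31 ± 0.50 SE, adjusted p = 0.0012). Tdrd12 and Tex11, which act in the piRNA pathway and in meiosis, fell as well (-1.90 and -1.69). Zar1, a maternal-effect gene of the oocyte, went from 9.57 ± 5.05 to 20.7 ± 4.46 CPM (SD, log2 fold change 1.19 ± 0.40 SE, adjusted p = 0.026). In mTEClo, Prdm9, which places meiotic recombination hotspots, went from 1.81 ± 0.238 to 5.96 ± 0.686 CPM (SD, log2 fold change 1.69 ± 0.36 SE, adjusted p = 0.0011), and Tex14, a component of the bridges between germ cells, from 31.9 ± 10.7 to 10.1 ± 2.58 CPM (SD, log2 fold change -1.69 ± 0.25 SE, adjusted p = 3.2e-05). Oas1d and Trip13 also fell there (-2.19 and -1.16). AireEEDdKO against AireKO gave 2 rises and 7 falls, beside 6.69% and 2.78% of all tested genes. Ooep, part of the maternal complex of the egg, rose from 10.2 ± 2.44 to 26.5 ± 5.88 CPM (SD, log2 fold change 1.35 ± 0.37 SE, adjusted p = 0.013), and Sgo2a, a guardian of meiotic cohesin, fell from 26.4 ± 2.84 to 7.30 ± 3.80 CPM (SD, log2 fold change -1.78 ± 0.31 SE, adjusted p = 0.00034). Tdrkh rose and Nlrp9b fell (1.10 and -2.49). Tex14 fell there too, from 78.0 ± 16.7 to 30.4 ± 7.02 CPM (SD, log2 fold change -1.36 ± 0.25 SE, adjusted p = 0.00058). The 10 repressors of germline genes that were examined had 0 calls in either fraction of EEDcKO in edgeR, with 3 at an unadjusted p under 0.05 in each fraction.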

How the data were processed

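Bulk RNA sequencing libraries (full-length total RNA) of sorted mTECs were quantified by the authors. Reads were trimmed with fastp 0.20.0, aligned with STAR 2.7.3a to mm10, filtered with SAMtools 1.9, cleared of duplicates with Picard 2.21.1 and counted per Ensembl gene without strand by htseq-count 0.11.2 (HTSeq). The deposited values are raw counts of reads per gene, 1 table for adult and 1 for neonatal libraries. CPM were computed here from these deposited counts with TMM scaling. Genes that passed filterByExpr (19310 adult, 20196 neonatal) were tested with edgeR 4.0.16 (quasi-likelihood F-test, 1 mean per group, all groups of a table in 1 fit, Benjamini-Hochberg adjustment over all tested genes) in R 4.3.3, with limma 3.58.1 loaded, and with DESeq2 1.42.0 as an alternative. The SE is the absolute log2 fold change divided by the square root of F. Bounds use a floor of 3 counts over a group. Intervals are exact, at 95%, and cover counting error only. The edgeR fit was tested on simulated data. No 2 libraries of a group were identical, and the lowest chi-square per degree of freedom was 1.233 over 61 adult and 1.243 over 31 neonatal pairs. The labels do not say which libraries came from separate mice, so p-values measure the spread between these libraries. Same-numbered libraries had correlated deviations in adult AireKO mTEChi against mTEClo (0.145 to 0.238 over 4 pairs) and in neonatal mTEChi AireEEDdKO against AireKO (0.123 to 0.226 over 3 pairs). These libraries also shared their age, and libraries with different numbers were not compared. Whether they were paired by animal or batch is therefore not known. The members and lists were chosen with earlier results of these data known. Values by library are for members called in 1 or more contrasts whose higher group averaged 2 CPM or above. From the wider list, a called gene could be named if its groups did not overlap and its higher group averaged at least 5 CPM. Its lower group also had to average more than 3 counts, so genes that fell to fewer counts were not named. Among the genes left, up to 3 rises and 3 falls per contrast with the largest changes were named. Promoter windows came from RefSeq, build GRCm38.p6.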

Additional observations from a re-analysis of the deposited data

Results flagged for a closer look

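A library stood apart from the rest of its group in 10 of 101 groups examined over 25 members, where chance gives about 1 in 20. That rate is only a guide, since some values rest on few counts and the members share the same libraries. In adult mTEClo WT, Tex15 was at 7.98 CPM in replicate 5 (group median 3.81) and Piwil2 at 4.55 CPM in replicate 1 (median 1.77). In adult mTEClo AireKO, Tdrd1 was at 0.622 CPM in replicate 2, from 1 count, and Zp1 at 3.27 CPM in replicate 1, from 6 counts. In adult mTEChi AireKO, Tdrd5 was at 3.00 CPM in replicate 1, from 7 counts, and Dmc1 at 0.811 CPM in replicate 4, from 2 counts. In neonatal mTEChi Ctrl, Tdrd1 was at 16.7 CPM in replicate 1 (median 12.8) and Zp2 at 75 CPM in replicate 5 (median 61.3). In neonatal mTEClo EEDcKO, replicate 3 stood apart for Stra8 at 6.34 CPM (median 1.09) and for Sohlh1 at 3.17 CPM (median 0.345), from pups aged 6 days.

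The AireKO effect differed between the adult fractions for 8 members in edgeR, with a difference in log2 fold change (mTEChi minus mTEClo) of -3.55 for Ddx4, -4.89 for Piwil2, -3.60 for Tdrd9, -1.98 for Sycp2, -2.37 for Smc1b, -1.67 for Brdt and -5.17 for Zp1. For Mei1 the fitted difference was -6.92, which depends on the prior count because mTEClo WT had 0 counts. All mTEChi AireKO libraries and 2 of 4 mTEClo AireKO libraries lacked mitochondrial counts, so this difference and the library property are partly mixed. For Zp3 an interaction of AireKO with EED was called in neonatal mTEChi (5.02), but the call was lost in 13 of 21 alternative fits. Zp3 had 3 counts over the AireKO and 12 over the EEDcKO libraries. Such low counts leave little room for a further fall in AireEEDdKO.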

How the results depend on the processing

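Of the counts of called members, 220 stayed within 1.5 times the main count over the alternatives and 33 did not. Of the single members' calls, 1581 kept their direction and call, 126 kept the direction but lost the call, and 1 reversed, Tdrd5 in adult mTEChi AireKO (0.43 with a term for libraries without mitochondrial counts). The cause was not tested. With that term the count was 7 in place of 16 in adult mTEChi AireKO and 5 in place of 8 for the difference between the fractions. Fitting only the groups compared, which tests fewer members, gave 1 in place of 4 in adult mTEClo AireKO, 11 in place of 19 in WT mTEChi against mTEClo, 5 in place of 8 in AireKO mTEChi against mTEClo, 5 in place of 3 in AireEEDdKO against AireKO, 1 in place of 6 in mTEChi AireEEDdKO against EEDcKO and 3 in place of 6 in mTEClo EEDcKO. Without the filter, 30 members were called in WT mTEChi against mTEClo, 5 for the difference between the adult fractions and 1 for the EED effect between fractions. DESeq2 called 13 and 1 in these last contrasts, and age as a term gave 1 for the EED effect between fractions.

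Leaving out each library in turn gave 14 to 18 calls in adult mTEChi AireKO, 3 to 5 in mTEClo AireKO, 17 to 19 in WT mTEChi against mTEClo, 5 to 9 in AireKO mTEChi against mTEClo and 5 to 10 for their difference (5 without mTEClo AireKO replicate 4). In neonatal mTEChi it gave 6 to 9 for AireKO, 6 to 9 for EEDcKO, 3 to 4 for AireEEDdKO against AireKO, 4 to 6 against EEDcKO and 0 to 2 for the interaction (2 without EEDcKO replicate 1). It gave 4 to 8 in mTEClo EEDcKO, 0 to 1 in mTEClo AireEEDdKO against EEDcKO (1 without EEDcKO replicate 3), 4 to 7 in Ctrl mTEChi against mTEClo and 0 to 1 for the EED effect between fractions (1 without mTEChi EEDcKO replicate 2 or 3). With a replicate block the counts were 18 in adult mTEChi AireKO, 7 in AireKO mTEChi against mTEClo and 3 in AireEEDdKO against AireKO. Except in the last 2, libraries shared only a number. Scaling by library size alone moved the median of all genes from -0.05 to -0.17 in adult mTEChi AireKO and from 0.03 to -0.17 in neonatal mTEChi AireKO. Members with a few counts per library limit what this depth can show.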
